A study of Mus musculus with 6 samples.

Results

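The genes described here were 10 markers of endothelial cells, the cells that line blood vessels, in the testes of mice at 5 days postpartum (dpp). They were chosen by name (*Pecam1*, *Cdh5*, *Esam*, *Kdr*, *Flt1*, *Tek*, *Tie1*, *Eng*, *Emcn* and *Egfl7*), and each matched 1 row of the 54532 genes in the table. RNA sequencing of polyadenylated RNA covered 3 control (Ctrl) testis samples and 3 conditional knockout (cKO) testis samples. The cKO mice were *Vasa*-Cre *Srsf1* Fl/del, so Cre came from the promoter of *Vasa* (*Ddx4*), a gene of germ cells, and the splicing factor gene *Srsf1* was deleted in germ cells. The genotype of the Ctrl mice was given only as Ctrl. That of the cKO mice, as written, pairs a conditional allele (Fl) with a deleted one (del). The sources used here do not say whether somatic cells of cKO mice, endothelial cells among them, carried the deleted allele. Which cells carried it was not tested here. Both groups were 5 dpp, and whole testes were sequenced, so each value sums the RNA of germ cells, Sertoli cells, interstitial cells, vessels and blood. A smaller or larger number of endothelial cells and less or more RNA per endothelial cell cannot be told apart in such samples.

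Endothelial cells hold together through junctions built from adhesion molecules such as VE-cadherin and PECAM1. They survive and sprout in response to vascular endothelial growth factors (VEGFs), which act through the receptors KDR and FLT1, and they stabilise in response to angiopoietins, which act through TEK with its relative TIE1. In the testis the vessels run through the interstitium between the cords, beside Leydig cells and macrophages, and blood vessels shape the cords in the fetal gonad.

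Values are FPKM, fragment counts scaled for gene length and library size, so that levels of different genes can be set side by side. Levels of different genes and ratios between them depend on the annotated length used, for example 13504 bases for *Flt1* and 9030 for *Kdr*. Where 3 values are listed for a group, they follow the order of replicates 1, 2 and 3. The reads behind the FPKM could be recovered and summed to between 15448191 and 18964743 per library. The 10 genes had between 93 and 2726 reads in a library, at which counting alone gives a coefficient of variation of 10.4% and 1.92%. *Srsf1* measured 82.1 to 89.1 FPKM among Ctrl libraries, with 45.1 to 51.6 FPKM among cKO libraries. The groups did not overlap (log2 fold change −0.85 in limma). The adjusted p-value was 0.058 in limma and 0.0255 in limma voom on the recovered reads. One extraction note in the labels speaks of retinas. The 8 retina markers were at most at 0.311 FPKM, with *Crx* and *Nrl* at 0 in all libraries, whereas the Sertoli-cell hormone gene *Amh* was at 257 to 837 FPKM. Germ-cell markers stood apart in Ctrl 2 (149% of the Ctrl mean, against 74.3% and 76.5% in Ctrl 1 and Ctrl 3), and erythroid markers stood apart in cKO 3 (287% of the Ctrl mean).

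To ask how the endothelial genes differed between cKO and Ctrl testes, their levels were compared library by library. All 10 genes had reads in every library, and 8 of the 10 had a higher mean in cKO than in Ctrl testes. Of all tested genes, 50.5% had a log2 fold change above 0. *Pecam1*, *Esam*, *Tie1* and *Flt1* were higher in every cKO library than in every Ctrl library, and none of the 10 was lower in every cKO library. Across all 16206 tested genes, 10.3% were higher and 12.8% were lower without overlap. As a mean over the 10 genes, each set to its own Ctrl mean, the Ctrl libraries were at 103%, 97.3% and 99.3% and the cKO libraries at 127%, 112% and 143%. By this mean the cKO libraries were all above the Ctrl libraries, with cKO 2 nearest to them and cKO 3 farthest away. It includes *Flt1*, at 157%, 185% and 176.5% in the cKO libraries, whose Ctrl mean lay below the 0.5 FPKM average needed for testing. The median over the 10 genes, also with *Flt1*, was 100.5%, 95.7% and 97.6% in the Ctrl libraries. In the cKO libraries that median was 127%, 107% and 138%. No single gene passed the test.

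In limma on log2(FPKM + 1), 0 of the 10 genes had an adjusted p-value (Benjamini-Hochberg, over all tested genes) of 0.05 or less, and the same was true of 0% of tested genes in the higher and 0% in the lower direction. At an unadjusted p-value under 0.05, *Pecam1*, *Cdh5*, *Tie1* and *Flt1* were higher (4 of 10) and none was lower, against 6.6% of tested genes higher and 9.31% lower. With limma voom on the recovered reads, also 0 of the 10 genes passed, where 0.136% of tested genes were called higher. The authors, with DESeq2 on read counts, called genes both lower and higher in cKO testes. The median log2 fold change of the 10 genes was 0.31, beside 0.0027 over all tested genes, and without cKO 3 it was 0.17. All 10 genes passed the filter (0.5 FPKM or more on average across the 6 libraries), but *Flt1*, with a Ctrl mean of 0.456 FPKM, passed it only through its cKO values. *Flt1* is counted among the genes higher without overlap and among those higher at an unadjusted p-value under 0.05. With a filter of 1 FPKM, which left *Flt1* out, the median log2 fold change was 0.33.

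**Figure D1:**
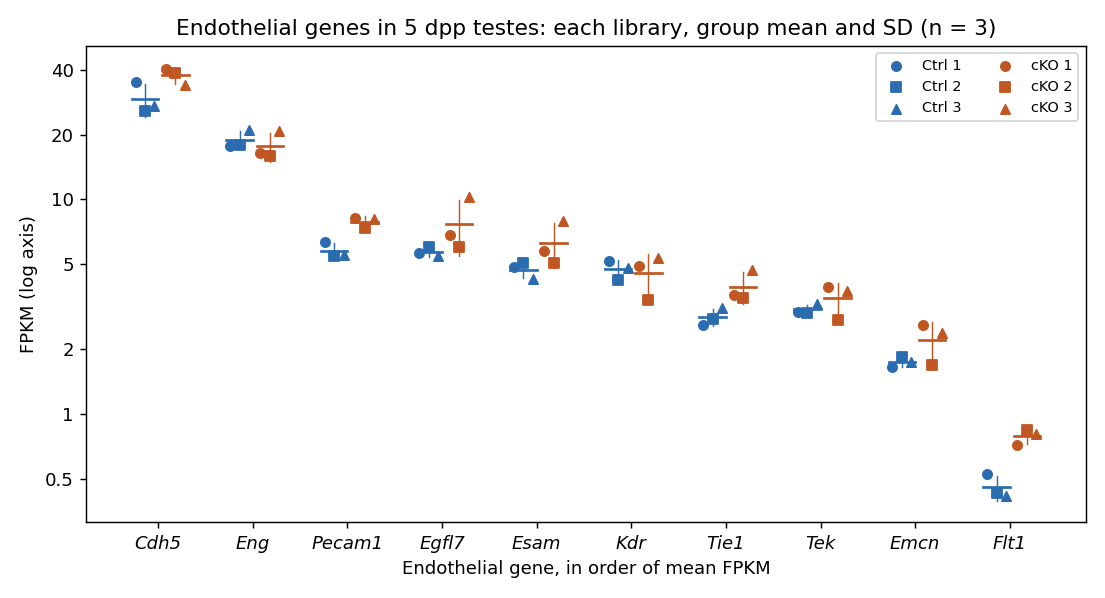
FPKM on a log axis of the 10 endothelial genes in each library, Ctrl in blue and cKO in orange, with the group mean (horizontal line) and SD (vertical line, n = 3). *Cdh5* and *Eng* lie well above the other genes and *Flt1* lies below 1 FPKM, and the orange points lie above all blue points for *Pecam1*, *Esam*, *Tie1* and *Flt1*.

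The genes spanned a wide range of levels, and their order was similar in both groups. In Ctrl testes *Cdh5* was highest at 29.3 ± 5.14 FPKM (SD, n = 3), followed by *Eng* at 18.9 ± 1.86 FPKM, and *Flt1* was lowest at 0.456 ± 0.0607 FPKM, so that the highest mean was 64.2-fold the lowest. In Ctrl testes the ranges of neighbours in this order overlapped in 3 cases, namely *Pecam1* with *Egfl7*, *Kdr* with *Esam*, and *Tek* with *Tie1*, while the other neighbours were apart. In cKO testes the highest mean was 48.0-fold the lowest, and neighbours overlapped in 5 cases, in an unbroken chain from *Pecam1* through *Egfl7*, *Esam*, *Kdr* and *Tie1* to *Tek*. The SD was larger in cKO than in Ctrl testes for 8 of the 10 genes. Among the cKO libraries, cKO 2 was lowest for 8 genes and cKO 3 was highest for 5.

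The adhesion genes of endothelial junctions were considered first. *Pecam1* (ENSMUSG00000020717, chr11:106654217-106750628, − strand, GRCm38) encodes PECAM1 or CD31, an immunoglobulin-family molecule at contacts between endothelial cells that is also found on platelets, leukocytes and early mouse germ cells. *Pecam1* measured 6.31, 5.44 and 5.49 FPKM in the Ctrl libraries, compared with 8.20, 7.32 and 8.05 FPKM in the cKO libraries. The lowest cKO value lay 1.01 FPKM above the highest Ctrl value, and the cKO mean was 137% of the Ctrl mean. Its log2 fold change of 0.39 (SE 0.094, 95% interval 0.17 to 0.61) came at an adjusted p-value of 0.144 in limma, the lowest among the 10 genes, and over the alternatives the adjusted p-value ran from 0.077 to 0.386. The unadjusted p-value was under 0.05 in all 16 alternatives.

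*Cdh5* (ENSMUSG00000031871, chr8:104101625-104144511, + strand) encodes VE-cadherin, the cadherin of endothelial adherens junctions. *Cdh5* measured 35.2, 25.7 and 27.0 FPKM in the Ctrl libraries, compared with 40.3, 38.8 and 34.2 FPKM in the cKO libraries. The groups overlapped through Ctrl 1 alone, which lay above cKO 3. The log2 fold change was 0.36 (SE 0.133, 95% interval 0.05 to 0.68) and the adjusted p-value was 0.262 in limma. An antisense gene, *Gm29682*, overlaps *Cdh5* over 4249 bases but had only 44 reads in the 6 libraries together.

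*Esam* (ENSMUSG00000001946, chr9:37528078-37538319, + strand) encodes an adhesion molecule associated with endothelial tight junctions and found on platelets too. *Esam* measured 4.83, 5.04 and 4.25 FPKM in the Ctrl libraries, compared with 5.76, 5.07 and 7.95 FPKM in the cKO libraries. The separation was narrow, since cKO 2 lay only 0.037 FPKM above Ctrl 2. The log2 fold change of 0.33 (SE 0.153, 95% interval −0.029 to 0.69) had adjusted p 0.349 in limma, and without cKO 3 it was 0.17.

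The receptors for VEGF were compared next. KDR (VEGFR2) carries most VEGF signalling in endothelial cells, whereas FLT1 (VEGFR1) binds VEGF tightly and acts largely as a trap for it. *Kdr* (ENSMUSG00000062960, chr5:75932827-75978458, − strand) measured 5.17, 4.19 and 4.78 FPKM in the Ctrl libraries, compared with 4.87, 3.38 and 5.35 FPKM in the cKO libraries. The cKO libraries lay on both sides of the Ctrl libraries. For *Kdr* the log2 fold change was −0.061 (SE 0.155, 95% interval −0.43 to 0.30; adjusted p-value 0.878 in limma), an interval that leaves room for a difference in either direction, and without cKO 2 the value was 0.099.

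*Flt1* (ENSMUSG00000029648, chr5:147561604-147726011, − strand) measured 0.526, 0.428 and 0.415 FPKM in the Ctrl libraries, compared with 0.715, 0.842 and 0.805 FPKM in the cKO libraries. All cKO libraries lay above all Ctrl libraries, on 93 to 190 reads per library, and the cKO mean was 173% of the Ctrl mean, the largest ratio among the 10 genes. On the log2(FPKM + 1) scale the difference was 0.30 (SE 0.125, 95% interval 0.00092 to 0.59) and the adjusted p-value was 0.313 in limma. At such low values the pseudocount of 1 shrinks the difference. On recovered reads limma voom gave 0.80 (SE 0.181, 95% interval 0.39 to 1.2) at an adjusted p-value of 0.068, the lowest over the alternatives, which ran up to 0.522.

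The level of *Flt1* relative to *Kdr* was then taken within each library, a comparison chosen after the values were seen. The ratio of *Flt1* to *Kdr* was 0.102, 0.102 and 0.0869 across the Ctrl libraries, compared with 0.147, 0.249 and 0.151 across the cKO libraries. Every cKO library was above every Ctrl library. This ratio was picked because *Flt1* separated and *Kdr* did not, so its separation is a description. An exact permutation test of the log2 ratio gave p 0.1, the smallest value possible with 3 libraries per group. That test cannot count as support for a ratio picked in this way.

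The angiopoietin receptors form a similar set of relatives. TEK (TIE2) binds angiopoietins, and TIE1, which has no well-established ligand of its own, modulates TEK signalling. *Tek* (ENSMUSG00000006386, chr4:94739289-94874976, + strand) measured 2.99, 2.96 and 3.25 FPKM in the Ctrl libraries, compared with 3.91, 2.74 and 3.72 FPKM in the cKO libraries. In cKO 1 and cKO 3 *Tek* lay above all Ctrl libraries, but in cKO 2 it lay below them. Its log2 fold change was 0.12 (SE 0.127, 95% interval −0.18 to 0.42; adjusted p-value 0.666 in limma), which ran from 0.049 without cKO 1 to 0.24 without cKO 2.

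*Tie1* (ENSMUSG00000033191, chr4:118471191-118490061, − strand) measured 2.60, 2.76 and 3.11 FPKM in the Ctrl libraries, compared with 3.58, 3.48 and 4.66 FPKM in the cKO libraries. The groups did not overlap, with 0.369 FPKM between the nearest libraries, and the cKO mean was 138% of the Ctrl mean. The log2 fold change was 0.35 (SE 0.124, 95% interval 0.06 to 0.65) and the adjusted p-value was 0.251 in limma. The ratio of *Tie1* to *Tek*, also chosen after the values were seen, was 0.870, 0.930 and 0.958 across the Ctrl libraries, compared with 0.915, 1.27 and 1.25 across the cKO libraries. These groups overlapped through cKO 1, and the ratio is likewise a description.

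Because *Flt1* and *Tie1* separated between the groups while their relatives *Kdr* and *Tek* did not, the 250 bases upstream of the RefSeq transcription start of these 4 receptor genes are shown, 5′ to 3′ on the strand of the gene (GRCm38.p6). The windows are chr5:75978456-75978705 (− strand) for *Kdr*, chr5:147726012-147726261 (− strand) for *Flt1*, chr4:94739039-94739288 (+ strand) for *Tek* and chr4:118489850-118490099 (− strand) for *Tie1*. The gene as annotated in the table starts further upstream for *Tie1*, so that 212 of the 250 bases of its window lie inside it, as do 3 of those of *Kdr*. Capitals mark the letters GGAA or, on the other strand, TTCC, the core that ETS-family transcription factors bind in many endothelial promoters.
Kdr: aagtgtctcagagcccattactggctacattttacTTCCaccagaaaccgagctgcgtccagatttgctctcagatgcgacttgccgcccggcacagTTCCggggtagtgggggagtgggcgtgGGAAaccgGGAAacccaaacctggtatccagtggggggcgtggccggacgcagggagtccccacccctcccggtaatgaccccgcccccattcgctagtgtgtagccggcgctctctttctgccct
Flt1: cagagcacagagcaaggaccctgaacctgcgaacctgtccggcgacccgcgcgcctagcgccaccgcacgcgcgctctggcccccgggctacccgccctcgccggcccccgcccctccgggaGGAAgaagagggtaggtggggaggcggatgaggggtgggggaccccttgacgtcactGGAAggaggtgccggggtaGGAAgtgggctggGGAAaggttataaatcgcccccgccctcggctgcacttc
Tek: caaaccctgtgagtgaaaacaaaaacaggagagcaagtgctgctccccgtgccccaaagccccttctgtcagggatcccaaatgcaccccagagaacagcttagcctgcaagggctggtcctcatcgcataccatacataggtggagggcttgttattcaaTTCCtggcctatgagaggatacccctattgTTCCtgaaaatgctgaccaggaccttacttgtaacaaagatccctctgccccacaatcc
Tie1: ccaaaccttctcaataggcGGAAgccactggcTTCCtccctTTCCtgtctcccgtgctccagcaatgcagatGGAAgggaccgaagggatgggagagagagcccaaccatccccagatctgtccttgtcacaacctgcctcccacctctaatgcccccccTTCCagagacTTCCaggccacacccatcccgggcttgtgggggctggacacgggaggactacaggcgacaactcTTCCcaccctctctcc

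The window of *Tie1* held 7 matches to GGAA on both strands together, that of *Tek* 2, and those of *Kdr* and *Flt1* 4 each. Among 32851 RefSeq promoter windows of the same length, 93.45% held at least 1 match, with a median of 3 and quartiles of 2 and 4. The core was therefore about as frequent in 3 of these windows as in promoters at large, and *Tie1*, whose window lies mostly inside the annotated gene, was above the upper quartile. Windows of 300 bases, with 50 bases after the start, were found for 7 of the 10 genes (*Egfl7*, *Eng*, *Emcn*, *Tek*, *Tie1*, *Kdr* and *Flt1*), with 3 starts for *Egfl7*. The longer letters CCGGAA occurred only in the window of *Kdr*, against 14.9% of all windows. The GC-box letters GGGCGG occurred in those of *Kdr*, *Flt1* and 1 start of *Egfl7*, against 35.7% of all windows. CCGGAA contains GGAA, so these counts overlap. A match is a stretch of letters and not a binding site.

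The remaining genes encode surface and secreted proteins of vessels. *Eng* (ENSMUSG00000026814, chr2:32646595-32682669, + strand) encodes endoglin, a co-receptor for ligands of the TGF-β and BMP family. *Eng* measured 17.75, 17.9 and 21.1 FPKM in the Ctrl libraries, compared with 16.3, 15.8 and 20.8 FPKM in the cKO libraries. The lower values were in cKO 1 and cKO 2 but cKO 3 was within the Ctrl range, and the log2 fold change of −0.10 (SE 0.125, 95% interval −0.39 to 0.19) had adjusted p 0.730 in limma. It ran from −0.22 without cKO 3 to −0.024 without Ctrl 3.

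*Emcn* (ENSMUSG00000054690, chr3:137341067-137432185, + strand) encodes endomucin, a sialomucin of capillary and venous endothelium. *Emcn* measured 1.66, 1.84 and 1.74 FPKM in the Ctrl libraries, compared with 2.58, 1.69 and 2.38 FPKM in the cKO libraries. In cKO 1 and cKO 3 *Emcn* lay above all Ctrl libraries, and in cKO 2 within their range. Its log2 fold change was 0.22 (SE 0.136, 95% interval −0.099 to 0.54; adjusted p-value 0.471 in limma), which ran from 0.14 without cKO 1 to 0.34 without cKO 2.

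*Egfl7* (ENSMUSG00000026921, chr2:26580014-26593120, + strand) encodes a secreted protein of the vessel matrix and hosts the endothelial microRNA miR-126. *Egfl7* measured 5.59, 6.01 and 5.44 FPKM in the Ctrl libraries, compared with 6.78, 6.003 and 10.2 FPKM in the cKO libraries. Ctrl 2 lay 0.011 FPKM above cKO 2, so the groups overlapped narrowly, and cKO 3 was far above the other libraries. The log2 fold change was 0.35 (SE 0.173, 95% interval −0.061 to 0.75; adjusted p-value 0.386 in limma), and without cKO 3 it was 0.14. The mature microRNA lies inside *Egfl7* at chr2:26591402-26591423 (+ strand, GRCm38.p6), where 1 of the 19 transcripts annotated for *Egfl7* in GENCODE release M21 has an exon. It is shown with its seed, bases 2 to 8, in capitals.
mmu-miR-126a-3p: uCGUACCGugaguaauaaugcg

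Libraries of polyadenylated RNA do not measure mature microRNAs, and the microRNA's own gene row (ENSMUSG00000065540) had 0 reads in all libraries. On the opposite strand, *Agpat2* overlaps the end of *Egfl7* over 64 bases and *Fpgs* overlaps that of *Eng* over 61 bases. On the same strand, the protein-coding gene *Gm20532* overlaps *Egfl7* over 6482 bases and had 0 reads in all libraries. The strand setting of the counting and its handling of reads shared by genes were not given. Reads in all these stretches therefore cannot be assigned with certainty.

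**Figure D2:**
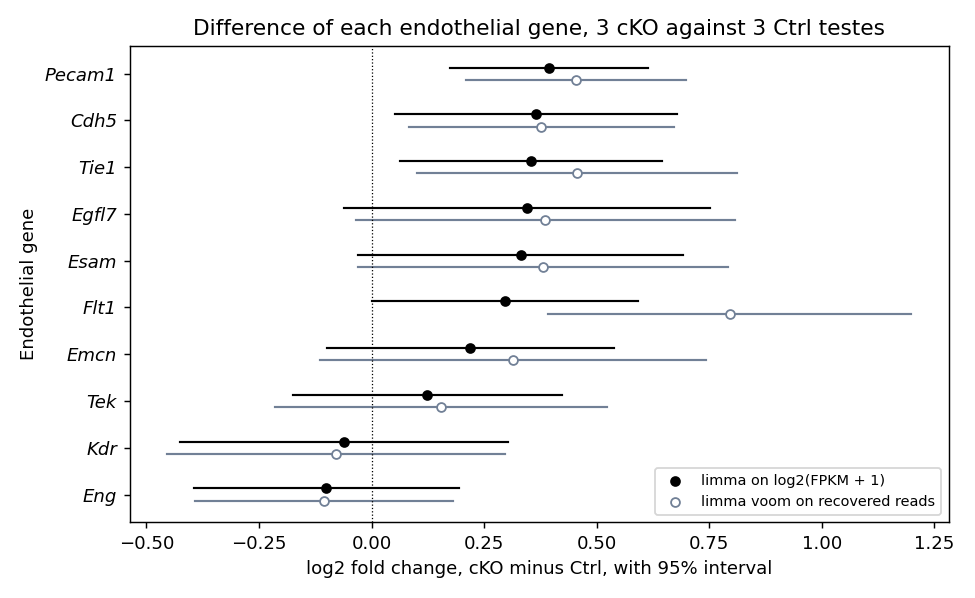
Log2 fold change (cKO minus Ctrl) with its 95% interval for each endothelial gene, from limma on log2(FPKM + 1) (filled points) and limma voom on recovered reads (open points). The intervals lie above 0 for *Pecam1*, *Cdh5*, *Tie1* and *Flt1* under both, before adjustment for the number of genes, and *Flt1* moves most between them, from 0.30 to 0.80.

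The endothelial genes were then compared among themselves across the 6 libraries, as a description in which the groups and the library depth are shared by all points. The correlation (Pearson) of a gene with the mean of the other 9, on log2(FPKM + 1), was 0.894 for *Esam*, 0.877 for *Egfl7*, 0.863 for *Tie1*, 0.830 for *Pecam1* and 0.805 for *Emcn*. It was 0.742 for *Tek*, 0.674 for *Flt1*, 0.414 for *Cdh5*, 0.344 for *Kdr* and 0.056 for *Eng*. Thus *Cdh5*, *Kdr* and *Eng*, which include the 2 most abundant genes, followed the common profile least. Among 8237 other protein-coding genes averaging 5 FPKM or more, the 5 with the profile most like the mean of the 10 were *Tshz3* (0.995), *Tomm5* (0.991), *Pdrg1* (0.988), *0610009B22Rik* (0.986) and *Lhfp* (0.984). None of these 5 was in a vascular list. Of the 23 vascular genes at this level, 4 (17.4%) had a correlation over 0.8, against 7.345% of all genes compared.

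To see how far the pattern of the 10 genes extended, 5 further lists of vascular genes were described. Together they held 62 genes, of which 59 passed the filter and 0 passed the test in limma. Of the 59, 51 were higher and 8 lower on average in cKO testes, where 50.5% of all tested genes were higher, and their median log2 fold change was 0.20. Without overlap, 17 of the 59 were higher and 2 were lower, beside the 10.3% and 12.8% of all tested genes given above. *Tal1* (means of 0.383 FPKM for Ctrl, 0.620 FPKM for cKO) and *Gja5* (0.465 and 0.722 FPKM) passed the filter only through their cKO values, and both are among the 51, with *Tal1* also among the 17.

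Other genes of endothelial identity, 19 of 20 above the filter, were close to the first 10. Of these, 17 were higher and 2 lower on average, where 50.5% of all tested genes were higher. Without overlap 6 were higher, beside 10.3% of all tested genes, and the median log2 fold change of the list was 0.20. *Cldn5*, the claudin of endothelial tight junctions, measured 10.5, 12.7 and 11.2 FPKM in the Ctrl libraries, compared with 16.2, 15.9 and 18.7 FPKM in the cKO libraries. All cKO libraries were well above the Ctrl libraries, and the log2 fold change of 0.53 (SE 0.104) had adjusted p 0.107 in limma. At the other end *Ecscr*, which encodes an endothelial surface protein, averaged 6.02 ± 0.459 FPKM (Ctrl) and 5.43 ± 0.574 FPKM (cKO; SD, n = 3 each; adjusted p-value 0.575 in limma).

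Among 10 transcription factors that act in endothelial cells, 9 were higher and 1 lower on average, with a median log2 fold change of 0.30. One of the 9 was *Tal1*, which passed the filter only through its cKO values. The SOXF factors *Sox7*, *Sox17* and *Sox18*, which share roles in vessel formation, were all higher without overlap, as were 10.3% of all tested genes. *Sox7* measured 1.18, 0.907 and 1.02 FPKM in the Ctrl libraries, compared with 1.91, 1.52 and 2.49 FPKM in the cKO libraries, with a log2 fold change of 0.54 (SE 0.150; adjusted p-value 0.179 in limma). The exception was *Erg*, an ETS-family factor, which measured 2.92, 6.02 and 2.30 FPKM in the Ctrl libraries, compared with 1.41, 1.95 and 2.20 FPKM in the cKO libraries. *Erg* was lower in every cKO library (log2 fold change −0.66, SE 0.277, adjusted p-value 0.307 in limma), with its highest value in Ctrl 2. The germ-cell marker *Dazl* was also highest in Ctrl 2 (120.2 FPKM against 47.0 and 59.3 FPKM in Ctrl 1 and Ctrl 3). The order of the other libraries varied among germ-cell markers. *Tex101*, *Kit* and *Nanos3* had Ctrl 1 above Ctrl 3, as *Erg* did, whereas *Dazl*, *Ddx4*, *Mael*, *Dnd1*, *Zbtb16* and *Gfra1* had Ctrl 3 above Ctrl 1. *Dnd1* had cKO 3 above cKO 2, as *Erg* did, whereas the other germ-cell markers above the filter had cKO 2 above cKO 3. The part of germ cells in *Erg* was not tested.

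Of 10 ligand genes for the receptors above, 8 passed the filter, 6 of them higher and 2 lower on average. *Vegfa*, the main ligand of KDR and FLT1, measured 10.6, 7.65 and 11.6 FPKM in the Ctrl libraries, compared with 14.5, 11.2 and 14.5 FPKM in the cKO libraries. The groups overlapped through cKO 2, and the log2 fold change was 0.40 (SE 0.166; adjusted p-value 0.304 in limma). *Tgfb3* averaged 14.5 ± 0.379 FPKM (Ctrl) and 13.6 ± 0.591 FPKM (cKO; SD, n = 3 each), lower without overlap by 0.089 on the log2 scale (adjusted p-value 0.601 in limma). *Gdf2* (BMP9) and *Bmp10*, circulating ligands that signal with endoglin, were below the filter, *Bmp10* at 0 in every library.

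Of 10 co-receptor and partner genes, 8 were higher and 2 lower on average, with a median of 0.077, which was 0.0097 without Ctrl 2. *Acvrl1*, the ALK1 receptor that works with endoglin, measured 22.0, 15.5 and 23.2 FPKM in the Ctrl libraries, compared with 26.1, 27.98 and 25.7 FPKM in the cKO libraries. It was higher in every cKO library, with a log2 fold change of 0.40 (SE 0.148; adjusted p-value 0.273 in limma), whereas *Eng* itself was not. *Ctnnd1*, the p120 catenin that binds VE-cadherin, averaged 5.51 ± 0.576 FPKM (Ctrl) and 5.27 ± 0.609 FPKM (cKO; SD, n = 3 each; adjusted p-value 0.848 in limma).

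Of 12 arterial, venous and tip-cell genes, 11 were higher and 1 lower on average, with a median of 0.20, which was 0.077 without cKO 3. *Aplnr*, the apelin receptor of venous and sprouting endothelium, measured 2.77, 2.34 and 3.67 FPKM in the Ctrl libraries, compared with 5.14, 4.73 and 5.90 FPKM in the cKO libraries. The groups were apart, and the log2 fold change of 0.68 (SE 0.146; adjusted p-value 0.119 in limma) was the highest in the 5 lists. Its ligand gene *Apln* had the lowest of this list, −0.24 (SE 0.201; adjusted p-value 0.590 in limma), with overlapping groups averaging 5.83 ± 1.13 FPKM (Ctrl) and 4.85 ± 1.49 FPKM (cKO; SD, n = 3 each).

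**Figure D3:**
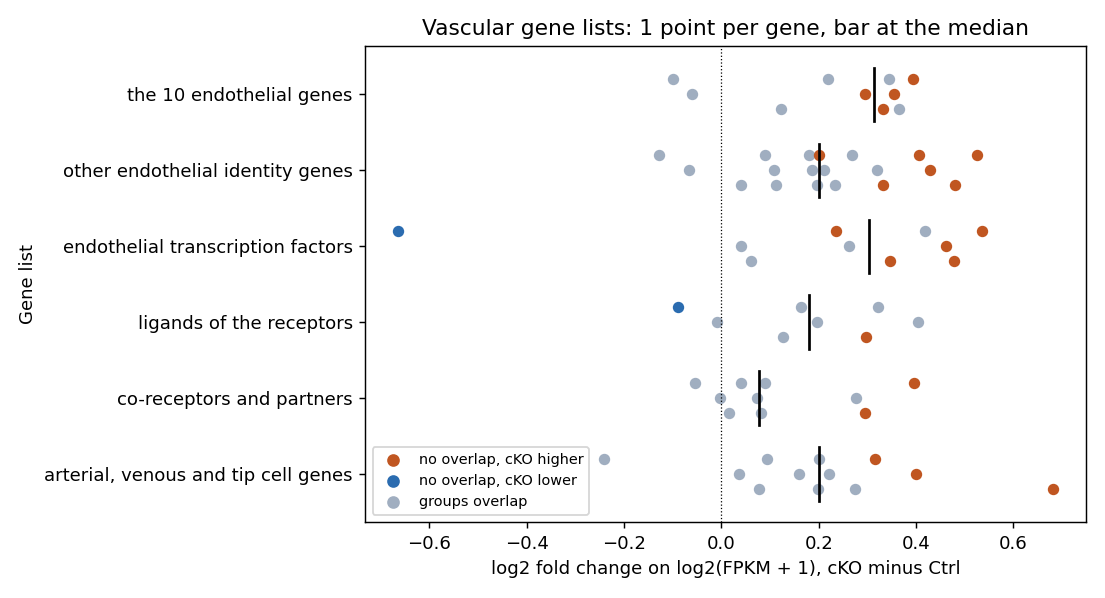
Log2 fold change on log2(FPKM + 1), cKO minus Ctrl, of each gene above the filter in 6 vascular gene lists, with a bar at the median of each list. Most points lie to the right of 0, with medians from 0.077 to 0.31, and the farthest point to the left is *Erg* at −0.66.

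Markers of the other cells in the samples were measured beside the endothelial genes. Pericyte and mural markers, which mark the cells that wrap vessels, were higher for 7 of 8 genes, with a median of 0.30, and summed to 60.7 to 71.8 FPKM among Ctrl libraries, with 69.5 to 74.0 FPKM among cKO libraries. Erythroid markers were higher on average for 5 of 5 genes above the filter, with overlapping groups, and summed to 438 to 697 FPKM among Ctrl libraries, with 526 to 1480 FPKM among cKO libraries. They were at 199%, 93.8% and 287% of the Ctrl mean in cKO 1, 2 and 3, the same order of cKO libraries as for the 10 endothelial genes. In Ctrl 1, 2 and 3 the orders differed, with 77.8%, 93.1% and 129% for erythroid markers. The 10 endothelial genes were there at 103%, 97.3% and 99.3%. Macrophage markers were higher for 5 of 8 genes and summed to 60.2 to 79.4 FPKM among Ctrl libraries, with 68.5 to 82.2 FPKM among cKO libraries. Of 6 megakaryocyte and platelet markers only *Pf4* and *Itga2b* passed the filter, *Gp1bb* was at 0 in all libraries, and their sum was 9.96 to 16.8 FPKM among Ctrl libraries, with 11.5 to 15.6 FPKM among cKO libraries.

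Germ-cell markers were lower for 9 of 9 genes above the filter and averaged 33.3% ± 8.94 (SD, n = 3) of the Ctrl mean in cKO testes. Their sums were 136 to 320 FPKM among Ctrl libraries, with 36.5 to 69.9 FPKM among cKO libraries. Leydig-cell markers were higher for 5 of 6 genes (429 to 624 FPKM against 658 to 748 FPKM in sum), whereas 8 of 10 Sertoli-cell markers (1985 to 2626 FPKM against 2095 to 2514 FPKM) and 5 of 6 peritubular myoid markers (521 to 533 FPKM against 328 to 511 FPKM) were lower. Over the marker lists, the lowest and highest log2 fold changes were −0.17 (*Mcam*) and 0.45 (*Higd1b*) for mural cells, 0.62 (*Hba-a1*) and 1.14 (*Hbb-bt*) for erythroid cells, and −0.24 (*Mrc1*) and 0.24 (*Cd68*) for macrophages. They were −2.25 (*Dazl*) and −0.28 (*Kit*) for germ cells, −0.99 (*Cldn11*) and 0.77 (*Amh*) for Sertoli cells, −0.043 (*Star*) and 0.77 (*Insl3*) for Leydig cells and −0.67 (*Actg2*) and 0.38 (*Des*) for myoid cells, while that of *Pf4* was −0.13. None of these genes passed the test in limma, while in limma voom on the recovered reads *Dazl* passed, at an adjusted p-value of 0.039. Other germ-cell markers that passed in limma voom were *Dnd1* (adjusted p-value 0.030), *Mael* (0.0394) and *Zbtb16* (0.0394). The part of these cells in the values of the endothelial genes was not tested. *Pecam1*, which early germ cells also express, was higher in all cKO libraries, in which germ-cell markers were lower. This follows the split between the groups, and the part of germ cells in *Pecam1* was not tested.

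**Figure D4:**
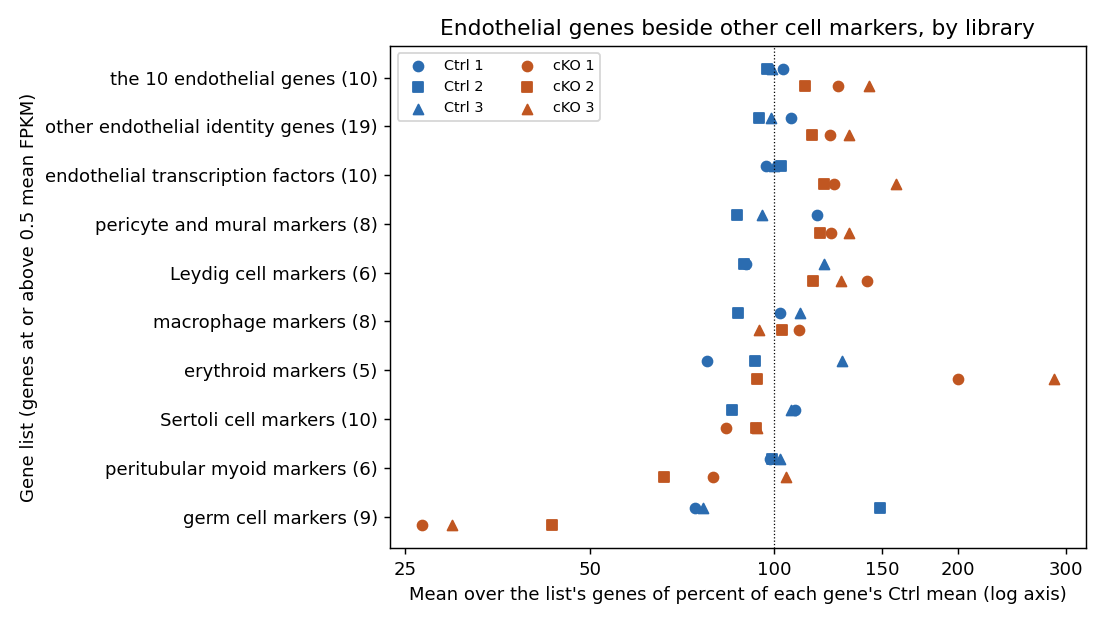
Mean over the genes of each list of the percentage of the gene's own Ctrl mean, on a log axis, in each library (number of genes in brackets). The 3 cKO libraries lie at 112% to 143% for the 10 endothelial genes, at 26.6% to 43.4% for the germ-cell markers and at 93.8% to 287% for the erythroid markers. The 10 endothelial genes include *Flt1*, which passed the filter only through its cKO values.

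Finally, each library was left out in turn. Groups that do not overlap cannot overlap once a library is removed. *Pecam1*, *Esam*, *Tie1* and *Flt1* therefore had to stay higher without overlap in all 6 cases, which is no check of them. In these cases 13.5% to 17.1% of tested genes were higher without overlap. Without cKO 2, *Egfl7*, *Tek* and *Emcn* joined them, making 7 of 10. Without Ctrl 2, which had the high germ-cell markers, 5 of 10 genes were higher without overlap. Without cKO 3, which had the high erythroid markers, 5 were higher and 1, *Eng*, was lower, where 17.1% of tested genes were higher and 19.4% lower without overlap. No gene of the 10 passed the test in any alternative.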

How the data were processed

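Total RNA of 5 dpp testes was poly-T selected and sequenced as paired-end reads. The authors aligned reads to the mouse genome (mm10, GRCm38) with HISAT2 2.0.5, counted reads per gene with featureCounts, and deposited 1 table of FPKM values for 54532 genes, scaled by gene length, with no per-gene counts used here. The annotation release was not given in the sources used here. Multiplying the deposited FPKM by gene length gave, in every library, whole multiples of 1 step for 100% of values (tolerance 0.01), hence the reads per gene, and the deposited FPKM carried median-of-ratios scaling between libraries.

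Values were tested on the log2(FPKM + 1) scale, which understates differences of low genes, using limma 3.58.1 (R 4.3.3) and the 16206 genes averaging 0.5 FPKM or more over all libraries. The model held the 2 groups without covariates, with a mean-variance trend, and two-sided p-values received Benjamini-Hochberg adjustment over all tested genes, with a threshold of 0.05. No count model was the main test because the unit is FPKM. Intervals are 95%. Tests were tried on simulated data. P-values measure the spread between samples, described as 3 biological replicates per group. Replicates differed by more than sampling noise (lowest chi-square per degree of freedom 10.3).

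The 10 genes and all lists were chosen with earlier results of these data known. The genes named were all 10 and *Srsf1*, the lowest and highest log2 fold change of each list among genes averaging 1 FPKM or more, any gene past the threshold, and the 5 genes most correlated with the mean of the 10. Other genes (*Sox17*, *Sox18*, *Gdf2*, *Bmp10*, *Tal1*, *Gja5*, *Itga2b*, *Gp1bb*, *Crx*, *Nrl*, *Lyve1*, *Prox1*, *Ddx4*, *Mael*, *Tex101*, *Dnd1*, *Nanos3*, *Zbtb16* and *Gfra1*) were named after their values were seen. Marker lists covered endothelial, pericyte and mural, megakaryocyte, erythroid, macrophage, germ, Sertoli, Leydig, peritubular myoid, retina and lymphatic genes. Promoters and the microRNA came from RefSeq tables of GRCm38.p6. Alternatives changed the pseudocount, the filter, the scaling (TPM, quantile, total reads), the trend, the genes tested, the test (limma voom), a replicate block, and left out each library.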

Additional observations from a re-analysis of the deposited data

How the results depend on the processing

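None of the 10 endothelial genes reached an adjusted p-value of 0.05 under any alternative, and all but *Kdr* kept their direction in each. *Kdr* (−0.061) was between −0.17 (without cKO 3) and 0.099 (without cKO 2) when libraries were left out. The median of the 10 genes was between 0.17 (without cKO 3) and 0.34 (without cKO 2) when libraries were left out, with 0.31 in the planned test. Counts of genes over the whole table varied with the processing. Against 0 lower and 0 higher (1508 and 1069 at an unadjusted p under 0.05), TPM gave 1 and 4, protein-coding genes alone 176 and 37, limma voom 61 and 22, and no mean-variance trend gave 1 higher gene. With each library left out, lower genes numbered 0 to 15 and higher genes 0 to 3. The cause was not tested. The replicate block gave 84 lower and 14 higher genes, none of them among the 10. Same-numbered libraries had deviations from the group means that correlated at 0.066, 0.016 and 0.088. The sources used here do not say how replicates were numbered, and these low values cannot settle whether samples were paired.

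The median of the other endothelial identity genes (0.20) was 0.30 with a pseudocount of 0.1, 0.27 with TPM and 0.30 with limma voom. That of the endothelial transcription factors (0.30) was 0.45, 0.42 and 0.46 in the same order. These scales shrink low values less. Among genes higher without overlap, a count added after the data were seen, leaving out a library gave 4 to 7 of the 10, beside 13.5% to 17.1% of tested genes. This count could not fall below that of all libraries together. *Flt1* rested on 93 to 190 reads per library and was below the filter of 1 FPKM.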

Other observations

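Lymphatic endothelial genes were described separately, since 1 of them stood apart. Of 5 symbols, *Ccl21a* had 2 rows in the table, and 4 of the 6 rows passed the filter, 2 higher and 2 lower on average. In limma 0 were past the threshold and 1 was higher at an unadjusted p under 0.05, beside 6.6% of tested genes. The *Ccl21a* row above the filter (a chemokine of lymphatic endothelium) measured 1.38, 2.09 and 1.80 FPKM in the Ctrl libraries, compared with 8.22, 1.94 and 26.2 FPKM in the cKO libraries. The high values were in cKO 1 and cKO 3, and cKO 2 was within the Ctrl range. The log2 fold change was 1.72 (SE 0.701; adjusted p-value 0.302 in limma). The value is uncertain, because near-identical copies of this gene can share reads. *Pdpn*, a membrane protein gene of lymphatic endothelium and other cells, averaged 85.1 ± 7.99 FPKM (Ctrl) and 76.8 ± 2.295 FPKM (cKO; SD, n = 3 each; adjusted p-value 0.497 in limma). *Lyve1*, a hyaluronan receptor gene of lymphatic endothelium and some macrophages, measured 4.57, 5.15 and 5.89 FPKM in the Ctrl libraries, compared with 4.55, 3.88 and 6.92 FPKM in the cKO libraries, and the groups overlapped. *Prox1*, the factor that sets lymphatic identity, was below the filter, at 0.319 to 0.510 FPKM among Ctrl and 0.371 to 0.594 FPKM among cKO libraries.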
